A study of Mus musculus with 12 samples.

Results

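Olig1, Olig2, Sox10, Nkx2-2, Pdgfra, Cspg4, Dll3 and Dcx are genes used to recognise oligodendrocyte precursor cells and gliomas of the proneural expression class. They were taken by gene symbol, and all 8 had a row among the 24054 rows of the deposited expression table. All 8 passed the filter on low values, together with 15232 rows in all.

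The libraries came from brain tumours that grew after ms7080 mouse tumour cells were placed in the striatum of female C57BL/6 mice. The labels name the ms7080 cell line for every library, while the treatment protocol speaks of BC cells. Each of the 4 groups held 3 libraries from 3 mice: young untreated hosts of 2 months, old untreated hosts of 16 months, old hosts dosed with NMN (nicotinamide mononucleotide, from which cells make the coenzyme NAD) at 300 mg/kg/day, and old hosts joined by parabiosis, surgery that lets paired animals share a circulation. How old the joined partners were is not stated in the labels used here. Young hosts came from commercial breeders and old hosts from an ageing colony, so host age and host source cannot be told apart, and because tumours were collected when symptoms appeared, the time in the host may differ between libraries.

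Oligodendrocyte precursors are dividing glial cells that carry the PDGF receptor Pdgfra and the proteoglycan Cspg4 (NG2) on their surface and depend on PDGF to proliferate. Olig1 and Olig2 are neighbouring basic helix-loop-helix transcription factors that set up the lineage, Sox10 carries it on into myelin-forming cells, and Nkx2-2 acts with them during differentiation. Proneural gliomas share much of this programme, together with the Notch ligand Dll3 and the microtubule-binding protein Dcx of migrating neuroblasts.

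Olig2, Cspg4 and Nkx2-2 moved together across tumours, as described further on, and the bases ahead of their start sites are shown for that reason. RefSeq windows existed for 6 of the 8 genes on GRCm38.p6, and each stretch below ends just before an exon of the GENCODE vM21 annotation. The Nkx2-2 stretch lies in the intron before the second exon of the longer GENCODE transcripts and ahead of one start in the RefSeq window table, which is inside the outer span of the gene given further on. Capitals mark 2 short motifs searched on both strands: CANNTG, the E-box that basic helix-loop-helix factors such as Olig2 bind, and ACAAT, core letters bound by Sox factors, which reads as ATTGT where it lies on the other strand. The 3 stretches read 5′ to 3′ on the strand of the gene.
Olig2, chr16:91225300-91225456, plus strand: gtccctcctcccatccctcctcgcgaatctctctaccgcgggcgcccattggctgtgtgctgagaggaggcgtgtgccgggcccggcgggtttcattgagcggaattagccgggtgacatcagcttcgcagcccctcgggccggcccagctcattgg
Cspg4, chr9:56864854-56865032, plus strand: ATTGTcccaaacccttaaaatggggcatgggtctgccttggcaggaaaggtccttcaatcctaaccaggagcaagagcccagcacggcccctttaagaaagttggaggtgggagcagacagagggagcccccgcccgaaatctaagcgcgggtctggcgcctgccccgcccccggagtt
Nkx2-2, chr2:147186456-147186652, minus strand: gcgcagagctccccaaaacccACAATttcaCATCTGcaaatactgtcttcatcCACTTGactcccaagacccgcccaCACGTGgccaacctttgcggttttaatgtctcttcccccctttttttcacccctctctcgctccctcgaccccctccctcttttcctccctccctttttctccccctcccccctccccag
The Nkx2-2 stretch held 3 E-boxes and 1 ACAAT, the Cspg4 stretch held no E-box and 1 ACAAT, and the Olig2 stretch held neither. Of the 32851 RefSeq windows read over the same length, 58.6% held an E-box and 23.4% held ACAAT at the Nkx2-2 length. The corresponding shares were 55.3% and 21.5% at the Cspg4 length and 50.8% and 19.3% at the Olig2 length. A match, or its absence, describes the letters of the window only.

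The deposited values are CPM, read counts relative to library sizes that were scaled by the trimmed mean of M-values (TMM). Whole reads recovered from them numbered 18566096 to 26779406 per library, and the lowest value of any of the 8 genes, Dll3 in parabiosis replicate 3, rested on 206 reads. The hosts are labelled female, but the X-inactivation transcript Xist was at 1.88 CPM in old untreated replicate 1, 2.76 CPM in old untreated replicate 2 and 5.33 CPM in young replicate 3, against 164 to 1127 CPM in the other 9 libraries. The Y-linked gene Ddx3y was detected in every library, at 34.0 to 132 CPM. These 3 libraries are drawn as open symbols, and the counts over the set and the largest differences are also given without them, which leaves 1 old untreated library, assumed to vary like the other groups, and 2 young ones.

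None of the 8 genes passed the test in any comparison between groups. The test was limma on log2(CPM + 1) over all 15232 genes and all 12 libraries, with Benjamini-Hochberg adjustment and a threshold of 0.05, and fold changes on this scale understate the changes of low genes. The same genes were also followed by whether the 3 libraries of one group lay wholly above or below the 3 of another, which is reported against the share of all genes that did so. An exact permutation test of 3 against 3 cannot go below 0.1. In the limma F test over the 4 groups, Sox10 was the 1 member with an unadjusted p under 0.05 (0.0274, adjusted 0.217), against 18.3% of all genes, and 0 genes passed after adjustment.

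Per kilobase of merged exon, Olig1 was the most abundant of the set, with a median of 139 CPM per kb over the 12 tumours, followed by Olig2 at 81.1 CPM per kb. Pdgfra (22.9 CPM per kb), Nkx2-2 (16.1), Cspg4 (13.4), Dcx (10.3), Dll3 (9.47) and Sox10 (5.35) followed. Over the 12 tumours Olig1 ranged from 65.8 to 177 CPM per kb and Olig2 from 42.3 to 97.9 CPM per kb, all above Pdgfra at 12.7 to 39.0 CPM per kb. Every other pair of neighbours in this order overlapped in range, down to Dll3 at 3.44 to 13.7 and Sox10 at 3.61 to 10.7 CPM per kb. The order Olig1, Olig2, Pdgfra also held for the group means of all 4 groups.

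Among the transcription factors, Olig1 measured 313, 301 and 360 CPM in the young tumours (replicates 1, 2 and 3, the order used throughout), 301, 375 and 169 CPM in the old untreated tumours, 293, 142 and 212 CPM in the NMN tumours and 383, 354 and 179 CPM in the parabiosis tumours. The young tumours lay close together, whereas the lowest libraries of the 3 old groups were at 169, 142 and 179 CPM. The NMN tumours all lay below the young ones. The means were 324 ± 31.1 CPM in the young tumours and 216 ± 75.2 CPM in the NMN tumours (SD, n = 3 each). On the log2 scale this was -0.64 ± 0.36 (SE), which did not pass (limma adjusted p = 0.29).

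Olig2, whose gene ends 41094 bases before Olig1 begins on chromosome 16 (GRCm38, 91225457 to 91228677 for Olig2 and 91269772 to 91271933 for Olig1, both on the plus strand), measured 203, 207 and 223 CPM in the young tumours, 191, 217 and 140 CPM in the old untreated tumours, 222, 107 and 158 CPM in the NMN tumours and 248, 219 and 130 CPM in the parabiosis tumours. Its young libraries were the most alike of any group, with a coefficient of variation of 4.80%. All groups overlapped the young one, and the old minus young log2 difference was -0.23 ± 0.29 (SE), with a limma adjusted p of 0.921.

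Sox10, on chromosome 15 (79154908 to 79165240, minus strand), measured 22.4, 14.2 and 32.8 CPM in the young tumours, 11.0, 12.0 and 11.3 CPM in the old untreated tumours, 19.4, 15.9 and 15.7 CPM in the NMN tumours and 28.3, 18.9 and 16.7 CPM in the parabiosis tumours. The old untreated tumours were the lowest of all 12 and lay below every library of the other groups, the nearest being young replicate 2. Their counts of 235, 320 and 299 reads gave exact Poisson 95% intervals of 9.66 to 12.5, 10.7 to 13.3 and 10.0 to 12.6 CPM, which cover counting error only, while young replicate 2 had an interval of 12.7 to 15.9 CPM. The mean was 11.4 ± 0.485 CPM in old untreated tumours and 23.1 ± 9.29 CPM in young ones (SD, n = 3 each), a ratio of 0.493.

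The Sox10 differences did not pass the test across all genes. The old minus young log2 difference was -0.89 ± 0.27 (SE), with an unadjusted p of 0.00705 and a limma adjusted p of 0.687. Old untreated tumours were also lower than NMN tumours, by a log2 difference of 0.53 ± 0.27 (limma adjusted p = 0.489), and than parabiosis tumours, by 0.81 ± 0.27 (limma adjusted p = 0.837). These 3 comparisons share the old untreated libraries and are not independent. Without the 3 low-Xist libraries the old minus young difference was -0.62 ± 0.36, the NMN minus old difference 0.55 ± 0.34 and the parabiosis minus old difference 0.83 ± 0.34, with 1 old untreated library left.

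Nkx2-2, on chromosome 2 (147177546 to 147194243, minus strand), measured 45.5, 48.7 and 63.3 CPM in the young tumours, 41.8, 51.9 and 40.0 CPM in the old untreated tumours, 54.9, 16.3 and 38.2 CPM in the NMN tumours and 47.0, 48.6 and 22.4 CPM in the parabiosis tumours. Its lowest values were in NMN replicate 2 and parabiosis replicate 3, and every pair of groups overlapped. The largest difference of group means was NMN minus young, -0.66 ± 0.40 on the log2 scale (SE, limma adjusted p = 0.329).

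**Figure D1:**
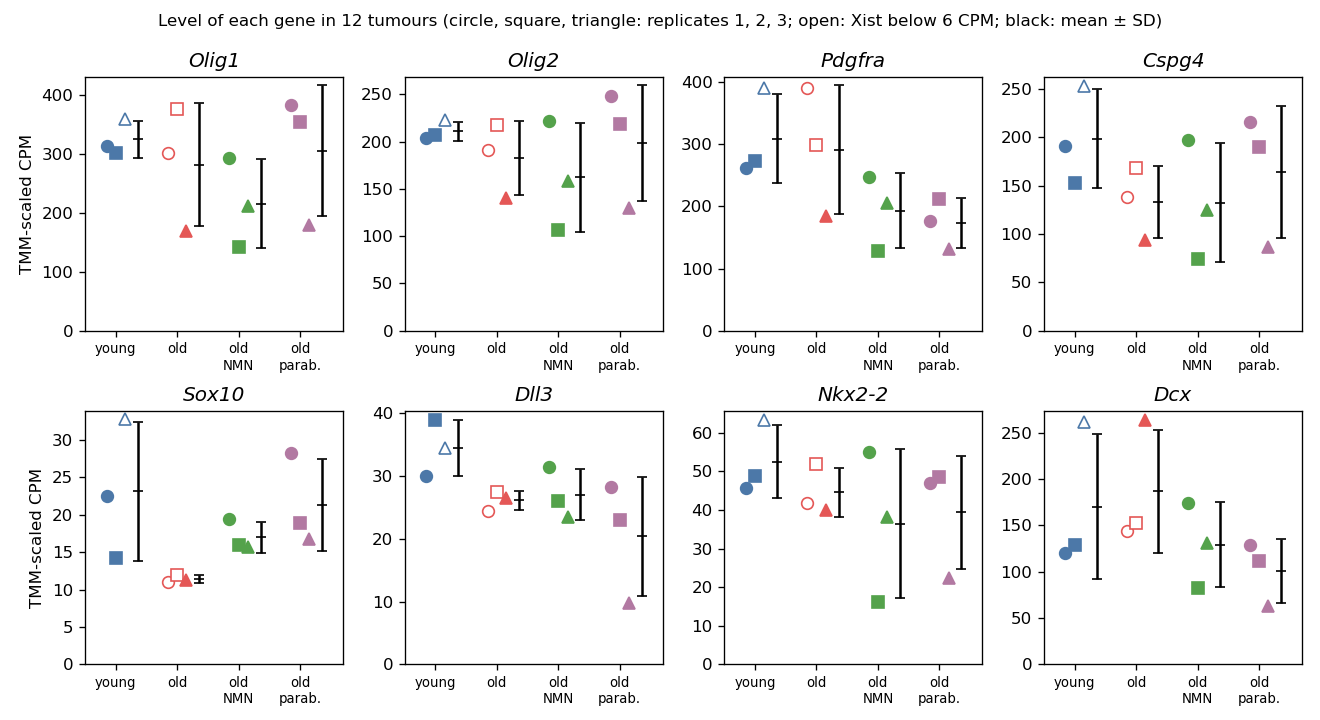
TMM-scaled CPM (vertical axes, each starting at 0) of the 8 genes in the 12 tumours, by group on the horizontal axis. Circles, squares and triangles are replicates 1, 2 and 3, open symbols are the 3 libraries with Xist below 6 CPM, and black marks are means with SD (n = 3). Sox10 in old untreated tumours sits at 11.0 to 12.0 CPM, under every other library.

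Of the surface proteins, Pdgfra, the receptor for PDGF ligands on precursor cells, on chromosome 5 (75152292 to 75198215, plus strand), measured 261, 273 and 391 CPM in the young tumours, 390, 299 and 184 CPM in the old untreated tumours, 247, 127 and 205 CPM in the NMN tumours and 176, 212 and 131 CPM in the parabiosis tumours. NMN and parabiosis tumours all lay below the young ones, and both groups overlapped the old untreated one through old replicate 3. The parabiosis mean was 173 ± 40.4 CPM and the young mean 308 ± 71.5 CPM (SD, n = 3 each), or -0.83 ± 0.32 on the log2 scale (SE, limma adjusted p = 0.207). Parabiosis minus old was -0.71 ± 0.32 (limma adjusted p = 0.887) and NMN minus old was -0.58 ± 0.32 (limma adjusted p = 0.498). Without the 3 low-Xist libraries these were -0.12 and 0.016, since the old group was then replicate 3 alone.

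Cspg4, the NG2 proteoglycan of precursors and of mural cells, on chromosome 9 (56865033 to 56899870, plus strand), measured 191, 152 and 253 CPM in the young tumours, 138, 168 and 93.8 CPM in the old untreated tumours, 197, 74.6 and 125 CPM in the NMN tumours and 216, 190 and 86.4 CPM in the parabiosis tumours. All groups overlapped, and the lowest values were in NMN replicate 2, parabiosis replicate 3 and old replicate 3. The old minus young log2 difference was -0.58 ± 0.41 (SE, limma adjusted p = 0.822).

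Dll3, a Notch ligand that acts within the cell rather than on its neighbours, on chromosome 7 (28293553 to 28302238, minus strand), measured 29.9, 38.9 and 34.4 CPM in the young tumours, 24.5, 27.4 and 26.5 CPM in the old untreated tumours, 31.5, 26.1 and 23.5 CPM in the NMN tumours and 28.3, 23.1 and 9.79 CPM in the parabiosis tumours. Old untreated and parabiosis tumours both lay wholly below the young ones, while NMN replicate 1 reached into the young range. Means were 34.4 ± 4.49 CPM in young, 26.1 ± 1.5 CPM in old untreated and 20.4 ± 9.52 CPM in parabiosis tumours (SD, n = 3 each). The log2 differences from young were -0.38 ± 0.30 for old untreated (SE, limma adjusted p = 0.847) and -0.84 ± 0.30 for parabiosis (limma adjusted p = 0.183). With the low-Xist libraries left out they were -0.35 ± 0.52 and -0.84 ± 0.39.

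Dcx (doublecortin), on chromosome X (143855842 to 143933311, minus strand), measured 121, 129 and 261 CPM in the young tumours, 144, 153 and 264 CPM in the old untreated tumours, 174, 82.4 and 131 CPM in the NMN tumours and 129, 112 and 62.7 CPM in the parabiosis tumours. The parabiosis tumours lay wholly below the old untreated ones, and the 2 highest values were in young replicate 3 and old replicate 3. The parabiosis mean was 101 ± 34.5 CPM and the old untreated mean 187 ± 66.6 CPM (SD, n = 3 each), a ratio of 0.542, or -0.89 ± 0.39 as a log2 difference (SE, limma adjusted p = 0.887). It was -1.44 ± 0.46 without the low-Xist libraries, with old replicate 3 alone.

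Read as a set, the genes had lower means in old untreated than in young tumours for 7 of 8, Dcx being the exception, against 47.0% of all genes tested. The median log2 difference was -0.25 for the set and 0.015 for all genes, 1 member had an unadjusted p under 0.05 and 0 members passed limma, and 6.96% of all genes had an unadjusted p under 0.05. The count past the adjusted threshold was 0 of all genes with limma, 0 with edgeR and 72, or 0.473%, with DESeq2 on the recovered reads, with no member among them. Sox10 and Dll3 were the 2 of 8 whose libraries did not overlap, and 13.6% of all genes did not overlap. Without the low-Xist libraries 7 of 8 were again below 0, with a median of -0.54, and old replicate 3 was then the whole old group.

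NMN minus old was below 0 for 6 of 8 genes, Sox10 and Dll3 being above 0, against 48.4% of all genes, with a median of -0.29 for the set and 0.011 for all genes. Sox10 was the 1 gene without overlap, where 19.5% of all genes had none, and 0 members had an unadjusted p under 0.05, against 10.3% of all genes. Limma and edgeR called 0 of all genes here and DESeq2 called 46 (0.302%), none of them a member. Without the low-Xist libraries the direction of 4 genes turned, leaving 2 of 8 below 0 (Nkx2-2 and Dcx) with a median of 0.080. Parabiosis minus old was below 0 for 4 of 8 genes (45.9% of all genes), with a median of -0.077 against 0.021. Sox10 was higher and Dcx lower without overlap, as were 13.7% of all genes in either direction, and 3 members (Pdgfra, Sox10 and Dcx) had an unadjusted p under 0.05, against 5.61% of all genes. Limma and edgeR called 0 of all genes and DESeq2 called 44 (0.289%), none of them a member. With the low-Xist libraries left out 4 of 8 were below 0 and the median was 0.17.

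Against the young tumours, NMN tumours had lower means for all 8 genes (51.7% of all genes), with a median of -0.54 against -0.014. Olig1 and Pdgfra did not overlap, as was so for 29.2% of all genes, and 0 of the 8 passed limma although 1242 genes, or 8.15%, did. Pdgfra was the 1 member with an unadjusted p under 0.05, against 25.7% of all genes, and neither edgeR, with 89 genes (0.584%), nor DESeq2, with 2367 genes (15.5%), called a member. Parabiosis tumours also had lower means than young ones for all 8 genes (48.4% of all genes), with a median of -0.41 against 0.011. Pdgfra and Dll3 did not overlap, against 23.9% of all genes, and 0 members and 0 of all genes passed limma, with 18.1% of all genes and 2 members at an unadjusted p under 0.05. edgeR called 0 genes in this comparison and DESeq2 called 977 (6.41%), none of them a member. Without the low-Xist libraries, which here removes young replicate 3, NMN minus young was below 0 for 8 of 8 with a median of -0.44, and parabiosis minus young for 7 of 8 with a median of -0.25, Sox10 being at 0.20. NMN and parabiosis tumours overlapped for all 8 genes, where 14.8% of all genes did not overlap. No member had an unadjusted p under 0.05 there, against 9.65% of all genes, and limma and edgeR called 0 of all genes and DESeq2 224 (1.47%), none of them a member. The comparisons with the young group share its 3 libraries, and in bulk tissue fewer cells of a type and less RNA per cell cannot be told apart. The 8 genes are not independent of each other, since Olig1, Olig2, Cspg4 and Nkx2-2 moved together across tumours. Counts of directions over the set thus hold fewer separate observations than genes.

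**Figure D2:**
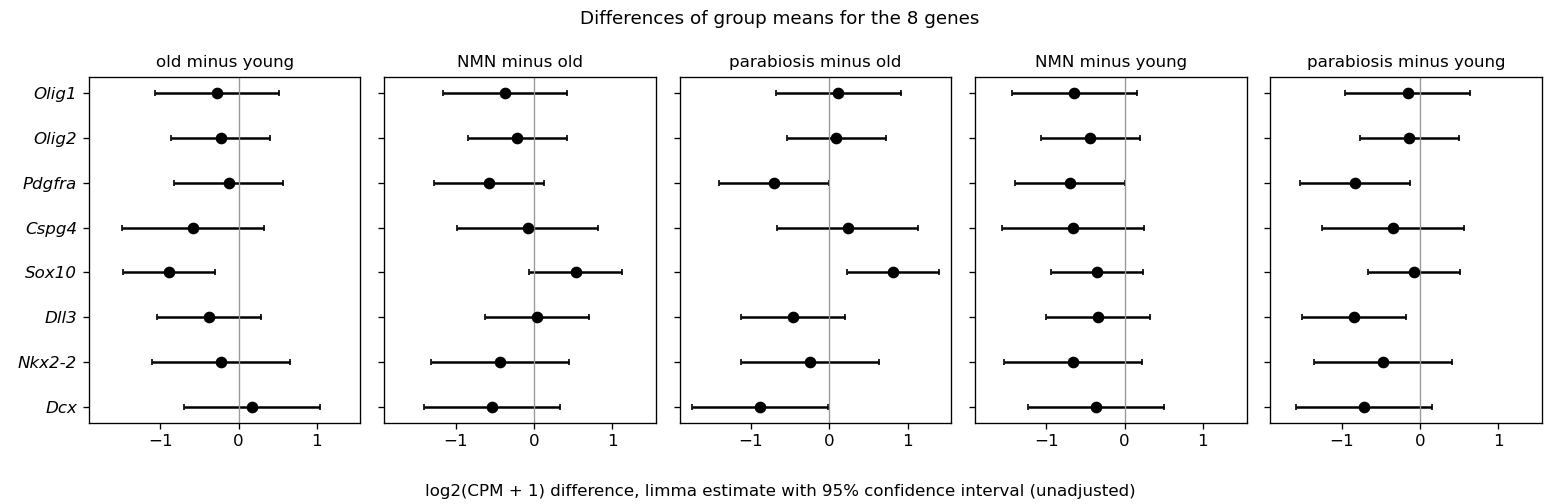
Differences of group means on the log2(CPM + 1) scale (horizontal axes) for the 8 genes (vertical axis) in 5 comparisons, as limma estimates with unadjusted 95% confidence intervals over 12 libraries. Intervals that leave out 0 are those of Sox10 in old minus young (below 0) and parabiosis minus old (above 0), and, below 0, of Pdgfra in parabiosis minus old, NMN minus young and parabiosis minus young, of Dcx in parabiosis minus old and of Dll3 in parabiosis minus young. No difference passed after adjustment over all genes.

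Tumours of the same group differed in these genes, and for Olig1, Olig2, Cspg4 and Nkx2-2 these differences ran in parallel. All 4 were low together in NMN replicate 2, parabiosis replicate 3 and, apart from Nkx2-2, old untreated replicate 3. Over the 12 libraries Olig1 and Olig2 had a Pearson r of 0.972 (permutation p = 2e-05, and 0.000187 adjusted over 28 pairs) and a Spearman rho of 0.853 (permutation p = 0.00077, adjusted 0.00719). The r was 0.951 without the 2 libraries farthest from the median of Olig1 and 0.969 for deviations from group means. In the other pairs with Olig2 below, the 2 farthest libraries were taken from the median of Olig2. For Olig1 with Pdgfra the median was that of Olig1, for Pdgfra with Nkx2-2 that of Pdgfra and for Nkx2-2 with Dcx that of Nkx2-2. The libraries left out can therefore differ between pairs.

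Olig2 and Cspg4 had an r of 0.954 (permutation p = 2e-05, adjusted 0.000187) and a rho of 0.951 (permutation p = 3e-05, adjusted 0.00084), with an r of 0.906 without the 2 farthest libraries. For Olig2 and Nkx2-2 r was 0.905 (permutation p = 5e-05, adjusted 0.00028) and rho was 0.867 (permutation p = 0.00045, adjusted 0.0063), with an r of 0.727 without the 2 farthest libraries. Deviations from group means gave an r of 0.964 for Olig2 with Cspg4 and 0.925 for Olig2 with Nkx2-2. All values of a library share its tissue sample and its scaling.

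Pdgfra, Sox10, Dcx and Dll3 had lower correlations with Olig2 over the 12 libraries. Pdgfra and Olig2 had an r of 0.67 (permutation p = 0.0179, adjusted 0.0477) and a rho of 0.476 (permutation p = 0.121, adjusted 0.187), and r was 0.248 without the 2 farthest libraries, on which the value over all 12 thus rests, and 0.807 for deviations from group means. With Olig1, Pdgfra had an r of 0.694 (permutation p = 0.0134, adjusted 0.0418) and a rho of 0.531 (permutation p = 0.0788, adjusted 0.159), with 0.539 without the 2 farthest libraries and 0.845 for deviations. With Nkx2-2, Pdgfra had an r of 0.778 (permutation p = 0.002, adjusted 0.008) and a rho of 0.72 (permutation p = 0.0108, adjusted 0.0466), with 0.47 without the 2 farthest libraries and 0.763 for deviations. The receptor's correlations with these transcription factors were thus higher for deviations from group means than over all 12 with Olig1 and Olig2, but not with Nkx2-2, and these differences were not tested. Sox10 and Olig2 had an r of 0.421 (permutation p = 0.172, adjusted 0.225) and a rho of 0.573 (permutation p = 0.056, adjusted 0.143). For Dcx and Olig2 r was 0.415 (permutation p = 0.177, adjusted 0.225) and rho was 0.364 (permutation p = 0.246, adjusted 0.299), and r became -0.333 without the 2 farthest libraries. With Nkx2-2, Dcx had an r of 0.711 (permutation p = 0.0113, adjusted 0.0396) and a rho of 0.51 (permutation p = 0.0938, adjusted 0.165), but an r of 0.288 without the 2 farthest libraries. For Dll3 and Olig2 r was 0.518 (permutation p = 0.0822, adjusted 0.128) and rho was 0.552 (permutation p = 0.066, adjusted 0.154), with an r of 0.368 without the 2 farthest libraries. In old untreated replicate 3 Dcx was at its highest, 264 CPM, while Olig1 and Olig2 were at 169 and 140 CPM.

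**Figure D3:**
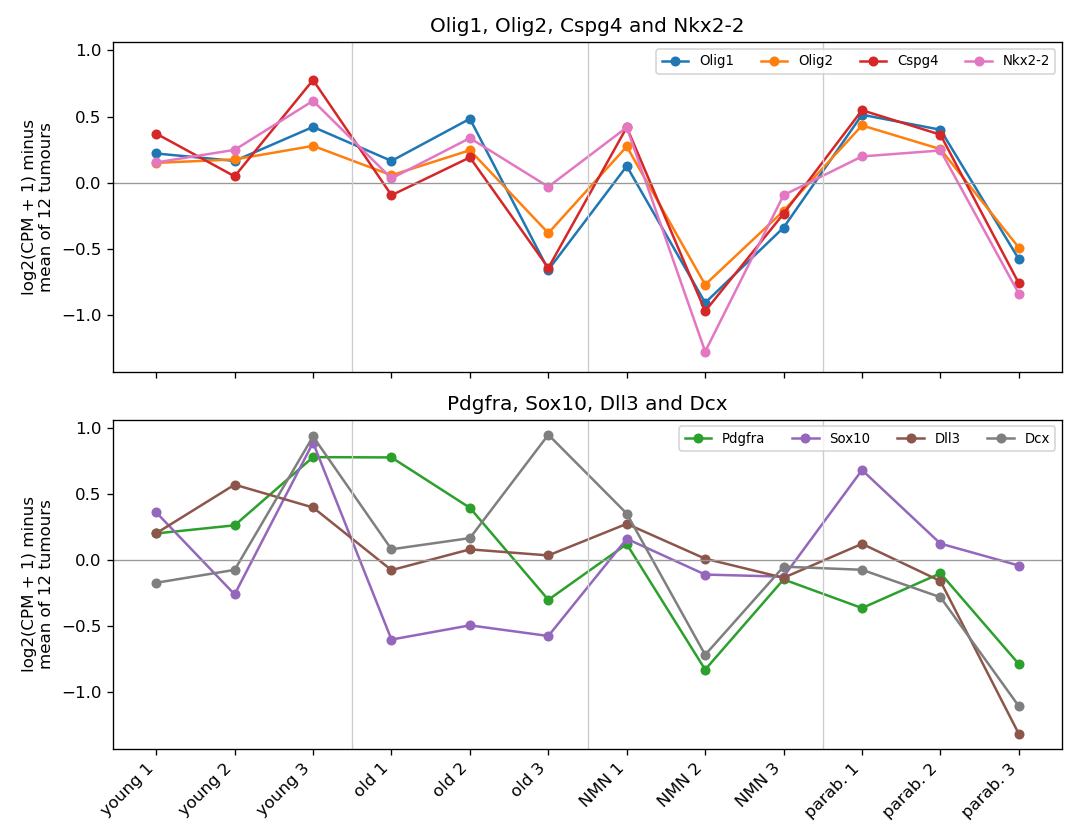
Log2(CPM + 1) of each gene minus its mean over the 12 tumours (vertical axes), by tumour along the horizontal axis with grey lines between groups. Olig1, Olig2, Cspg4 and Nkx2-2 dip together in NMN replicate 2 and parabiosis replicate 3, while Sox10 is low across the 3 old untreated tumours and Dcx is high in old replicate 3.

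Ratios to Olig2 within each tumour, a measure added after the levels were seen, set aside only variation that a gene shares with Olig2. The coefficient of variation over the 12 tumours was lower for the ratio than for the level in Olig1, Cspg4, Nkx2-2, Pdgfra and Sox10. It was higher for the ratio in Dcx, 48.2% against 41.8%, and in Dll3, 30.2% against 26.4%. Olig1 to Olig2 ranged from 1.21 to 1.73 over the 12 tumours, a coefficient of variation of 10.6%, against 23.4% for the level of Olig2 itself. The 3 NMN tumours had nearly the same ratio, 1.32, 1.33 and 1.34, although their Olig1 levels ran from 142 to 293 CPM.

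The ratio of Pdgfra to Olig2 was 1.29, 1.32 and 1.76 in young tumours, 2.05, 1.38 and 1.31 in old untreated tumours, 1.11, 1.19 and 1.30 in NMN tumours and 0.712, 0.969 and 1.01 in parabiosis tumours. Parabiosis tumours were the lowest of all 12. Against the old untreated tumours, both the NMN and the parabiosis ratios were lower without overlap. This was so for 0.256% and 1.69% of all genes, respectively (15.5% and 2.31% in either direction). For NMN, 15.2% of all genes had ratios higher without overlap. These shares depend on Olig2, the common denominator, with means of 162 CPM in NMN and 183 CPM in old untreated tumours. The NMN separation was narrow, 1.30 in NMN replicate 3 against 1.31 in old untreated replicate 3. Pdgfra alone had a Poisson 95% interval of 199 to 211 CPM in NMN replicate 3, around 205 CPM, so counting error could reverse this order.

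Dcx to Olig2 was 0.594, 0.624 and 1.17 in young tumours, 0.756, 0.703 and 1.88 in old untreated tumours, 0.785, 0.771 and 0.833 in NMN tumours and 0.522, 0.511 and 0.482 in parabiosis tumours. The parabiosis tumours lay below all the others and close to each other, and 1.69% of all genes had a ratio lower without overlap in parabiosis than in old untreated tumours. Sox10 to Olig2 was 0.0579, 0.055 and 0.0801 in old untreated tumours, and 0.0875 to 0.149 in NMN and 0.0864 to 0.129 in parabiosis tumours, so these groups did not overlap; ratios higher without overlap were found for 15.2% of all genes in NMN and 0.624% in parabiosis against old untreated tumours. Young replicate 2, at 0.0687, lay within the old range. Dll3 to Olig2 was 0.147, 0.188 and 0.155 in young tumours, 0.129, 0.126 and 0.189 in old untreated tumours, 0.142, 0.244 and 0.149 in NMN tumours and 0.114, 0.105 and 0.0753 in parabiosis tumours, the lowest of all 12. Against old untreated tumours the parabiosis ratios of Dll3 were lower without overlap, as were those of 1.69% of all genes. Cspg4 and Nkx2-2 ratios overlapped between old untreated tumours and each of the other 3 groups. Without the low-Xist libraries each statement against old untreated tumours rests on old replicate 3 alone, with a Pdgfra ratio of 1.31, a Dcx ratio of 1.88, a Sox10 ratio of 0.0801 and a Dll3 ratio of 0.189. With a denominator chosen from the set, these ratios carry the error of Olig2 as well, and no test is given for them. How many genes had all parabiosis ratios below every other tumour was not counted. The ratios share a denominator and are not independent of each other.

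**Figure D4:**
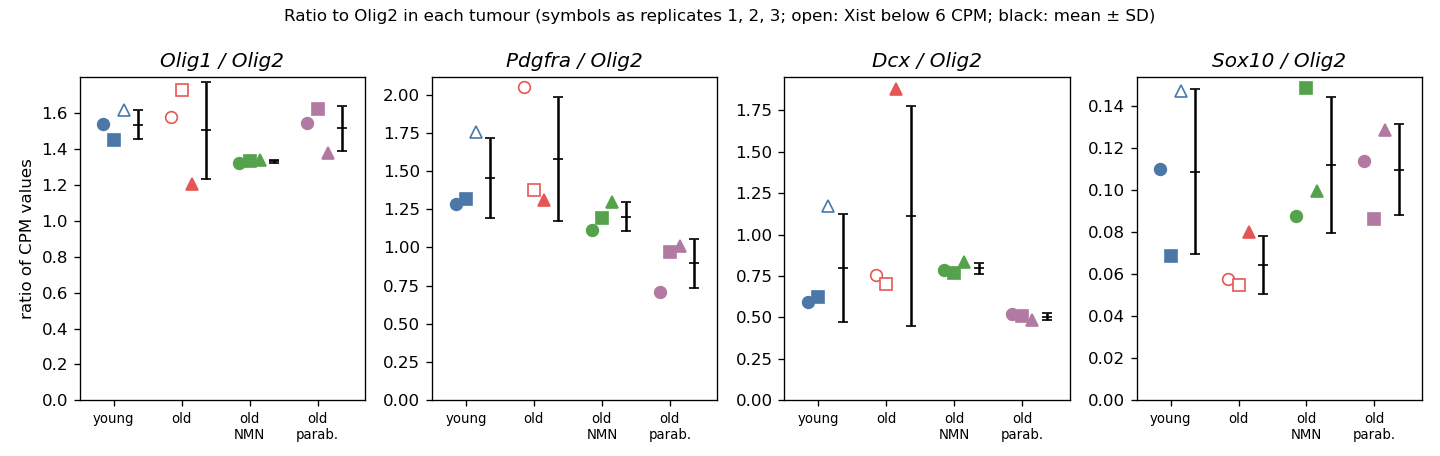
Ratio of the CPM of Olig1, Pdgfra, Dcx and Sox10 to that of Olig2 in each tumour (vertical axes, each starting at 0), by group on the horizontal axis. Symbols are replicates, open where Xist is below 6 CPM, and black marks are means with SD (n = 3). The parabiosis tumours have the lowest Pdgfra ratios, 0.712 to 1.01, and the lowest Dcx ratios, 0.482 to 0.522.

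Some of the 8 genes are also used by other cells of the brain. Mature oligodendrocytes express Sox10, and the summed level of 12 of their markers, among them the myelin genes Mbp and Cnp, was 267 to 931 CPM in young, 605 to 799 CPM in old untreated, 989 to 1859 CPM in NMN and 589 to 1192 CPM in parabiosis tumours. None of the 12 was at 0 in all libraries. Mbp, a myelin protein, was at 114, 64.6 and 341 CPM in young tumours and at 297, 240 and 218 CPM in old untreated ones. Its groups overlapped, and its mean was 173 ± 148 CPM in young and 252 ± 41.0 CPM in old untreated tumours (SD, n = 3 each). This difference did not pass (limma adjusted p = 0.808), while Sox10 had the lower mean in old untreated tumours. Of the 12 markers, 10 had higher and 2 lower means in old untreated than in young tumours. Their median log2 difference was 0.92, against 0.015 for all genes. An unadjusted limma p under 0.05 was found for 8 of the 12, against 6.96% of all genes, and 0 passed. With a score of neuron and mature oligodendrocyte markers as a term, the old minus young difference of Sox10 was -1.25 ± 0.28 (SE, limma adjusted p = 0.114). That score was -1.44, -1.82 and -0.053 in young and 0.30, -0.22 and -0.34 in old untreated tumours. Group and score thus partly go together in this fit, and the part of these cells in the level of Sox10 was not tested.

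Pdgfra is also expressed by fibroblasts and Cspg4 by mural cells. The 8 fibroblast markers summed to 28.3 to 54.9 CPM in young tumours and to 86.3, 108 and 471 CPM in the 3 old untreated tumours from lowest to highest, 32.7 to 79.7 CPM in NMN tumours and 50.7 to 78.1 CPM in parabiosis tumours. Col1a2, a collagen chain and the most abundant of them, ranged from 2.64 CPM in young replicate 3 to 195 CPM in old untreated replicate 1. Pdgfra was at 391 and 390 CPM in these libraries, and the second had the highest Pdgfra to Olig2 ratio, 2.05. No relation between Col1a2 and Pdgfra over the 12 tumours was computed. The 10 mural markers summed to 60.3 to 129 CPM in young, 97.1 to 152 CPM in old untreated, 84.0 to 96.8 CPM in NMN and 121 to 133 CPM in parabiosis tumours. No marker of either list was at 0 in all libraries, and the part of these cells in the levels of Pdgfra and Cspg4 was not tested.

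**Figure D5:**
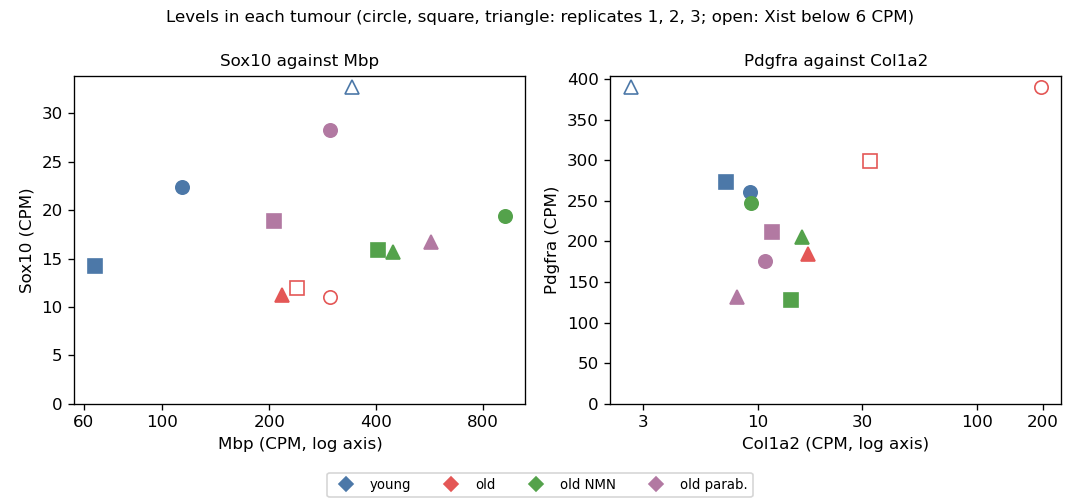
Sox10 against the myelin gene Mbp (left) and Pdgfra against the collagen gene Col1a2 (right) in the 12 tumours, in CPM with a log horizontal axis and a vertical axis from 0. Colours are groups, shapes are replicates and open symbols have Xist below 6 CPM. Old untreated tumours have Sox10 at 11.0 to 12.0 CPM with Mbp at 218 to 297 CPM. Col1a2 runs from 2.64 to 195 CPM, and no relation between Pdgfra and Col1a2 was computed.

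Neuron markers also differed between groups. The 15 with a row summed to 183 to 963 CPM in young, 709 to 1346 CPM in old untreated, 1555 to 3820 CPM in NMN and 1227 to 2924 CPM in parabiosis tumours. In NMN minus young, 12 of the 15 neuron markers and 8 of the 12 mature oligodendrocyte markers rose (limma), beside 8.15% of all genes called in either direction. With young replicate 1, young replicate 2 or NMN replicate 3 left out, 0 genes in all were called in that comparison, 2 without NMN replicate 1, 478 without old untreated replicate 2, 771 without parabiosis replicate 1, 1953 without parabiosis replicate 3 and 2129 without young replicate 3. With the neuron and oligodendrocyte score as a term, 1 gene was called. These limits apply to every NMN minus young call named here. None of the 16 relations between the 8 genes and either this score or a cell cycle score passed over the 12 libraries (lowest adjusted permutation p = 0.787). Dll3 and the cell cycle score had an r of 0.139 (permutation p = 0.675) and a rho of 0.112 (permutation p = 0.734). Without the 2 libraries farthest from the median of the score r was 0.798, the largest such value of the 16 relations, and it was not tested. The proliferation gene Mki67 was at 593 ± 164 CPM in young, 606 ± 32.1 CPM in old untreated, 412 ± 128 CPM in NMN and 530 ± 193 CPM in parabiosis tumours (SD, n = 3 each).

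A further 15 genes of oligodendrocyte precursors all had lower means in old untreated than in young tumours, against 47.0% of all genes. Their median log2 difference was -0.29, against 0.015 for all genes. Limma called 0 of the 15 and 0 of all genes. An unadjusted p under 0.05 was found for 1 of the 15, against 6.96% of all genes. Relative to the 12 tumours, their mean log2 level was 0.20, 0.19 and 0.55 in young and 0.10, 0.16 and -0.42 in old untreated tumours. In NMN minus young all 15 were again below 0 (51.7% of all genes), with a median of -0.53. Of these 15, 0 were called there, against 8.15% of all genes. In parabiosis minus young 14 were below 0 (48.4% of all genes), with a median of -0.30. Limma called 0 of the 15 and 0 of all genes in that comparison. In parabiosis minus old 6 were below 0 (45.9% of all genes). The 15 genes were not counted without the low-Xist libraries, and how far they move together was not tested. Vcan, a large matrix proteoglycan, was at 1191 ± 146 CPM in young, 1077 ± 65.5 CPM in old untreated, 821 ± 37.8 CPM in NMN and 704 ± 225 CPM in parabiosis tumours (SD, n = 3 each). Sox6, a transcription factor that holds precursors back from differentiating, was at 313 ± 10.4 CPM in young and 220 ± 11.6 CPM in NMN tumours, which was a difference of -0.51 ± 0.18 (SE, limma adjusted p = 0.109).

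Of 17 other proneural genes, 1 rose and 1 fell in NMN minus young, where 8.15% of all genes were called (limma). In the other comparisons limma called 0 of them and 0 of all genes. Sox2, a transcription factor of neural stem cells, fell from 203 ± 17.2 CPM in young to 143 ± 4.55 CPM in NMN tumours (SD, n = 3 each), by 0.50 ± 0.12 on the log2 scale (SE, limma adjusted p = 0.0322). It was at 160 ± 22.0 CPM in old untreated and 150 ± 11.6 CPM in parabiosis tumours. Fgf9, a fibroblast growth factor, rose from 1.22 ± 1.27 CPM to 6.19 ± 2.41 CPM in the same comparison (limma adjusted p = 0.0329).

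The 6 PDGF ligands, other receptor and receptor-like genes had 0 calls in any comparison with limma. Of all genes, 8.15% were called in NMN minus young and 0 elsewhere. An unadjusted p under 0.05 was found for 1 of the 6 in old minus young, against 6.96% of all genes. In parabiosis minus young it was found for 1, against 18.1%. Pdgfa, the main ligand of Pdgfra in brain, was at 10.9 ± 3.68 CPM in young, 11.3 ± 2.43 CPM in old untreated, 9.39 ± 3.18 CPM in NMN and 10.5 ± 0.53 CPM in parabiosis tumours. Pdgfc, another ligand of the same receptor, was at 6.67 ± 3.46, 3.94 ± 1.18, 5.32 ± 1.28 and 5.55 ± 0.639 CPM in those groups (SD, n = 3 each).

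Among 11 Notch receptors, ligands and targets, 1 rose in NMN minus young, beside 8.15% of all genes called (limma). Elsewhere 0 of the 11 and 0 of all genes passed. Jag2, a Notch ligand displayed to neighbouring cells, rose from 6.49 ± 0.594 CPM in young to 12.8 ± 3.81 CPM in NMN tumours (SD, n = 3 each), by 0.85 ± 0.23 on the log2 scale (SE, limma adjusted p = 0.0452). Hes5, a target of Notch, was at 34.5 ± 5.30 CPM in young, 28.1 ± 8.5 CPM in old untreated, 36.2 ± 12.2 CPM in NMN and 26.1 ± 8.57 CPM in parabiosis tumours, with overlapping groups.

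Of 12 further transcription factors of the oligodendrocyte lineage 10 passed the filter on low values, and 1 rose in NMN minus young (limma), again with 8.15% of all genes called. Nkx6-2, which is active as oligodendrocytes mature, went from 0.694 ± 0.364 CPM in young to 2.39 ± 0.392 CPM in NMN tumours (SD, n = 3 each; limma adjusted p = 0.0269). Of 12 genes of neuroblasts and their microtubules 1 rose in the same comparison, against the same 8.15%, namely Stmn2, from 11.5 ± 6.65 to 55.0 ± 27.1 CPM (limma adjusted p = 0.0279). Stmn2, a microtubule-destabilising protein of neurons, also belongs to the neuron markers above. Dcx had means of 170 CPM in young and 129 CPM in NMN tumours and did not pass. Of the mesenchymal glioma genes, the expression class set against the proneural one, 10 passed the filter on low values. In NMN minus young all 10 were below 0 (51.7% of all genes), with a median of -0.67 against -0.014 for all genes. Of these 10, 2 fell (8.15% of all genes called), among them the hyaluronan receptor Cd44. Its fall was 1.02 ± 0.26 on the log2 scale (SE, limma adjusted p = 0.0429). In NMN minus old all 10 were also below 0 (48.4% of all genes), with a median of -0.65 against 0.011. Limma called 0 of the 10 and 0 of all genes there, and both comparisons share the NMN tumours.

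The genes most like each member, by Pearson r of log2(CPM + 1) over the 12 libraries among all kept genes, are given as a description. These r are the highest found in that search, and no chance level was computed for them. Cntn1, at r = 0.954, was nearest to Olig1, Elfn1, at 0.950, was nearest to Olig2, and Zcchc24, at 0.957, was nearest to Cspg4. Zcchc24 was also among the 3 nearest to Olig1, at 0.943, and Elfn1 among the 3 nearest to Nkx2-2, at 0.927. Megf11, one of the 15 further precursor genes, was nearest to Nkx2-2, at 0.947. Pdgfra was nearest to Cby1 at 0.933, Dll3 to Zfp276 at 0.932 and Dcx to Sbk1 at 0.944. Nrarp, a target of Notch signalling, was among the 3 nearest to Dll3, at 0.917. Sox10 had the weakest nearest neighbour, Tspan3 at 0.858.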

How the data were processed

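Each of the 12 libraries is tumour RNA from 1 mouse, with 3 mice in each of 4 groups taken from the labels. Total RNA was depleted of ribosomal RNA and sequenced as stranded paired 150 bp reads, per the labels' protocols. The submitters' processing notes list the tools FastQC, edgeR, RSEM 1.2.15 and Bowtie2 2.1.0 and the builds mm10 and GRCm38. The authors deposited CPM values, counts relative to TMM-scaled library sizes. Values in each library were whole multiples of 1 read for 100% of entries (tolerance 0.01), so read numbers were recovered for edgeR and DESeq2 as alternatives. Of the rows, 3064 were 0 in all libraries, and 27 rows carried symbols turned into dates or shared by several rows.

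Genes with at least 1 CPM in at least 3 libraries were fitted with limma 3.58.1 (R 4.3.3) on log2(CPM + 1), with 1 mean per group and a variance trend. edgeR 4.0.16 and DESeq2 1.42.0 served as alternatives. The fits were checked on simulated data. The 8 genes and the gene lists were chosen with earlier results of these data known. From each pathway list up to 4 genes with the smallest F test p could be named, from each marker list up to 3 of the highest mean CPM, and for each of the 8 genes the 3 nearest patterns. Pdgfa, Pdgfc, Hes5, Sox2, Mki67 and Xist were always eligible, and 2 genes that these rules allowed are not reported here. Gene positions and exon lengths come from GENCODE vM21. The sources used here do not state whether counting used strand, so reads of overlapping antisense genes may be included. No explanation for any difference was tested.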

Additional observations from a re-analysis of the deposited data

How the results depend on the processing

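Across 24 differences (8 genes in old minus young, NMN minus old and parabiosis minus old), 600 alternative fits gave 575 of the same direction, 25 reversed and 0 that passed, with a lowest adjusted p of 0.0911 for Sox10 in old minus young with a cell cycle score as a term. The directions of 11 differences, those of Sox10 among them, held in every alternative run. Of the reversals, 19 came from leaving out 1 library. In old minus young, the values without 1 library were -0.52 to 0.055 for Olig1, -0.37 to 0.17 for Pdgfra and -0.11 to 0.52 for Dcx. In NMN minus old they were -0.47 to 0.057 for Olig2, -0.42 to 0.27 for Cspg4, -0.80 to 0.049 for Nkx2-2 and -0.075 to 0.13 for Dll3. In parabiosis minus old they were -0.21 to 0.46 for Olig1, -0.092 to 0.37 for Olig2, -0.016 to 0.64 for Cspg4 and -0.43 to 0.11 for Nkx2-2. The other 6 were Dll3 in NMN minus old with quantile normalization, -0.011, Dcx in old minus young with the neuron and oligodendrocyte score, -0.13, and, without the low-Xist libraries in NMN minus old, Olig1 0.29, Olig2 0.14, Pdgfra 0.016 and Cspg4 0.38. The cause was not tested.

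Counts of genes called moved more. DESeq2 called 72 genes in old minus young, 46 in NMN minus old, 44 in parabiosis minus old, 2367 in NMN minus young, 977 in parabiosis minus young, 224 in NMN minus parabiosis and 1614 by the test over 4 groups, where limma called 0 except for 1242 in NMN minus young. edgeR called 89 in NMN minus young. With the neuron and oligodendrocyte score the counts were 1 in old minus young, 1 in NMN minus young and 49 in parabiosis minus young, and with the cell cycle score 991, 2579 and 2347, and 2019 over 4 groups. Without the low-Xist libraries they were 2 in parabiosis minus old, 327 in parabiosis minus young, 2 in NMN minus parabiosis and 11 over 4 groups. Without a filter NMN minus young gave 742 and the test over 4 groups 3, without a variance trend NMN minus parabiosis gave 1, and with only the 2 groups compared NMN minus young gave 29. Leaving out 1 library gave 0 to 2 in old minus young, 0 to 1 in parabiosis minus old, 0 to 2129 in NMN minus young, 0 to 701 in parabiosis minus young, 0 to 1 in NMN minus parabiosis and 0 to 689 over 4 groups.

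The replicate numbers were not taken as pairing the libraries: 10 of 18 same-numbered pairs had a correlation of deviations over 0.1, from -0.50 to 0.60, with a median of 0.22 against -0.065 for other pairs. The fit with the replicate block called 1376 genes in NMN minus young and none of the 8 genes. With 3 tumours a group, the width of the intervals, about 1 log2 unit or more, limits what could be seen in these genes. Counting error matters for narrow separations. The Sox10 Poisson 95% intervals of old untreated replicate 2, 10.7 to 13.3 CPM, and young replicate 2, 12.7 to 15.9 CPM, overlapped.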
